A study of Mus musculus with 6 samples.

Results

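The genes of the DNA replication machinery were taken by symbol, as those named Mcm, Orc, Gins, Pola, Pold, Pole, Rfc, Rpa or Rrm with their numbers, together with Prim1, Prim2, Pcna, Cdc6, Cdt1, Cdc45, Gmnn, Tyms, Lig1, Fen1, Chaf1b and Tipin. They numbered 50 of the 18193 genes on the array, with 113 of its 45037 probe sets. Each gene was read on its brightest probe set, by mean level over the 6 arrays. Chaf1a was not analysed here. The genes were measured in cells of prepubertal mouse testis, split by magnetic sorting for the surface glycoprotein Thy1 with a modified procedure, 1 Affymetrix array per sample. The Thy1-positive fraction, in which the labels place the greater stem cell content by transplantation, has arrays P1, P2 and P3, and the Thy1-negative fraction, which holds the remaining cells, has arrays N1, N2 and N3. The 3 arrays of a fraction come from independent donor preparations. Strain and exact age are not stated in the labels, and both fractions are mixtures of cell types of otherwise untreated animals, as far as the labels say. Levels are printed as log2(intensity + 1). A difference is the mean of the Thy1-positive arrays minus that of the Thy1-negative ones on the same scale, with the SE and adjusted p of limma (Benjamini-Hochberg over all 18193 genes, 3 arrays per fraction), and a gene is said to have risen or fallen only at an adjusted p below 0.05.

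Before a cell copies its genome, the origin recognition complex, Cdc6 and Cdt1 load the MCM helicase onto DNA, which licenses each origin. In S phase Cdc45 and the GINS complex turn the loaded helicase into an active one, RPA coats the single strands, primase with polymerase alpha starts each strand, and polymerases delta and epsilon, held by the PCNA clamp that RFC loads, complete them. Many of these genes are known targets of the E2F transcription factors, and dividing cells carry much more of their mRNA than resting cells. In the prepubertal testis spermatogonia divide, and so do Sertoli cells until they mature.

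The start regions of these genes are shown first, since shared control by E2F is what the family is known for. Of the 50 genes, 42 had 51 promoters in the RefSeq table used here, each of 250 bases before and 50 after a transcription start (GRCm38.p6). The letters TTTCCCGC, TTTCGCGC, TTTGCCGC and TTTGGCGC, which spell the core of the E2F site, were searched on both strands. They occurred in 17 of the 42 genes (40.5%), against 704 of 27025 genes in the table (2.61%), and in 18 of the 51 promoters (35.3%), against 744 of 32851 (2.26%). Of the 24 matches, 17 began within 50 bases of the start, and the farthest began 165 bases from it. A single site of Pole4 lies in overlapping promoters of that gene and is counted in each of them. Matches can overlap: 4 overlapped another E2F match and 1 overlapped a CCAAT match. The box CCAAT, on either strand, was in 26 of the 42 genes (61.9%), against 41.1% of all genes, and the cell cycle element TTTGAA in 5 (11.9%), against 20.2%. A match is only a run of letters, and binding was not measured.

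The promoters of 6 genes are printed 5′ to 3′ with E2F matches in capitals. Mcm3, Mcm6 and Mcm7 are helicase genes that rose and hold matches, Orc1 and Pole2 hold a match and did not pass the test, with differences of opposite sign, and Mcm10 had the highest difference of the 50 and holds none in this window. The Mcm10 window ends in the letters TTTGGCG, which begin a searched word, and the next base lies outside it and was not read.
Mcm3 (GRCm38.p6, chr1:20820263-20820562, minus strand): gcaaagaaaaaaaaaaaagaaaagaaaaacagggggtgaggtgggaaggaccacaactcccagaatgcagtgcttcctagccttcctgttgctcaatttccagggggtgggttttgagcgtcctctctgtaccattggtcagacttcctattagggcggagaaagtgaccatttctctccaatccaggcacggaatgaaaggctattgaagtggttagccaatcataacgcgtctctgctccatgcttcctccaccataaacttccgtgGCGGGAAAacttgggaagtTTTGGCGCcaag
Mcm6 (GRCm38.p6, chr1:128359656-128359955, minus strand): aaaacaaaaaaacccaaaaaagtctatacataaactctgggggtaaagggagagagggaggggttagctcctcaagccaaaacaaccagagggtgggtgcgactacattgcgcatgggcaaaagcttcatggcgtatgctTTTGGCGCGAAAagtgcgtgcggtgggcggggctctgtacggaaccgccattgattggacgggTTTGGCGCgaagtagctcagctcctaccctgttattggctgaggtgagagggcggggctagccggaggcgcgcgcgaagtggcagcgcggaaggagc
Mcm7 (GRCm38.p6, chr5:138171834-138172133, minus strand): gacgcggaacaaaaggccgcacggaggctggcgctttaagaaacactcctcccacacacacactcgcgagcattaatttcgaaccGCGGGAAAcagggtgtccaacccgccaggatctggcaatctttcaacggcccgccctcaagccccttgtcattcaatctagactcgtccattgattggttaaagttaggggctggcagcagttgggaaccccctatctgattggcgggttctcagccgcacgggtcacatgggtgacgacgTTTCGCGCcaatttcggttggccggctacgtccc
Orc1 (GRCm38.p6, chr4:108579204-108579503, plus strand): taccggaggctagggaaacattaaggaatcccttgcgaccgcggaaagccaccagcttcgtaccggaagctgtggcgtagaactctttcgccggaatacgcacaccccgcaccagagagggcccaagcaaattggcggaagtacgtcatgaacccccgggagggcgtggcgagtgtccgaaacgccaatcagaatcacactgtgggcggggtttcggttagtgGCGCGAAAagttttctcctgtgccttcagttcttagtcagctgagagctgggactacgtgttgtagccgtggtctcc
Mcm10 (GRCm38.p6, chr2:5012742-5013041, minus strand): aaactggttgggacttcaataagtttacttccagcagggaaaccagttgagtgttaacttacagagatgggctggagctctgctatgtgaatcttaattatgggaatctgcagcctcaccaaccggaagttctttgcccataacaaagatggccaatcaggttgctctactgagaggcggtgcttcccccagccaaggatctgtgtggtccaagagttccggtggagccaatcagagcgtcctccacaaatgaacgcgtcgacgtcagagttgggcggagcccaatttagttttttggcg
Pole2 (GRCm38.p6, chr12:69228141-69228440, minus strand): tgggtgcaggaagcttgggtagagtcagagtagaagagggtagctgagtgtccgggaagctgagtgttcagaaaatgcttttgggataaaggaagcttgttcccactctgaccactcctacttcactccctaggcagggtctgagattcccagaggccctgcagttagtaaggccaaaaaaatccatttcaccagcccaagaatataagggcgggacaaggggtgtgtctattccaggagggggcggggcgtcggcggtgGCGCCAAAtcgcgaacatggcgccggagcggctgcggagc
The matches of Mcm6 at 110 and 106 bases before the start overlap each other on opposite strands. Of the 22 genes with a promoter in the table that rose, 9 held a match, and of the 20 that were not called, 8 did.

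Replication genes had mostly higher levels in Thy1-positive cells, by a modest amount each, and about as many passed the test as did not. Of the 50 genes, 26 rose (52.0%), against 18.5% of all genes. None fell by limma, and 0 were lower at an unadjusted p below 0.05, where 14.4% of all genes fell. The difference was above 0 for 48 of 50 (96.0%), against 56.3% of the comparably bright genes, and its median was 0.75, or 1.68-fold, against 0.01 for all genes and 0.14 for the 9180 genes at least as bright as the dimmest of the 50. Among those 9180 genes 27.8% rose and 23.3% fell. All Thy1-positive arrays lay above all Thy1-negative ones for 38 of the 50 (76.0%), against 31.6% of all genes and 39.0% of the comparably bright ones, and all lay below for 1 (Mcm9), against 19.8% of all genes. Both fractions are mixtures, in which fewer cells of a type and less RNA per cell cannot be told apart. A median of similar size, 0.79, remained without Pcna and the Mcm2 to Mcm7 genes.

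The differences were spread over many members and most were under 2-fold. A difference of at least 1 was seen in 11 members, of which 9 rose, and 34 others were 1.2-fold or more higher without reaching that difference. Among the top 10% of all genes by difference lay 9 of the 50 (18.0%). The plot of cumulative differences shows this narrow band between the broad tails of all genes.

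**Figure D1:**
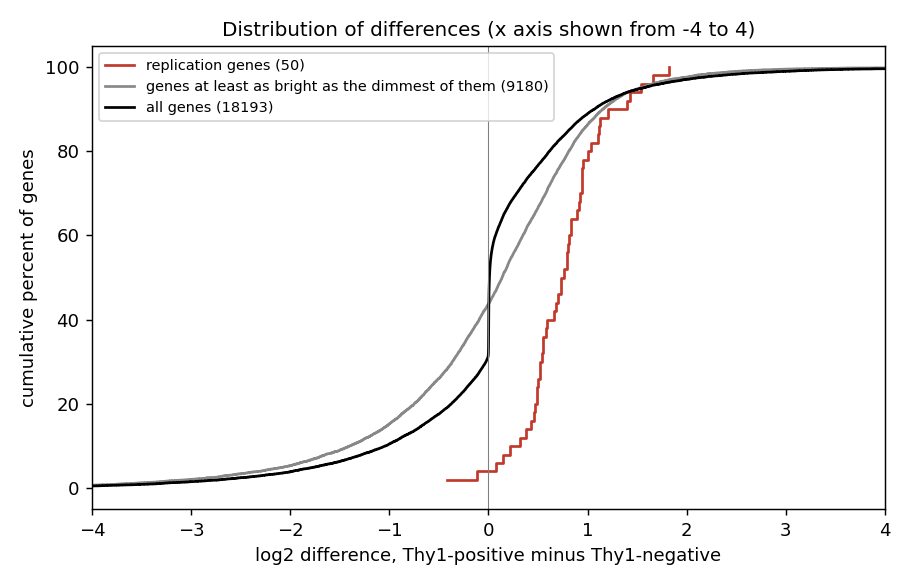
Cumulative percent of genes (y axis) against the log2 difference, Thy1-positive minus Thy1-negative (x axis, cut at -4 and 4), for the 50 replication genes, the 9180 genes at least as bright as the dimmest of them, and all 18193 genes. The curve of the replication genes lies to the right of both others over most of its length, with its median at 0.75, and ends at 1.83.

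The number of calls depended on single arrays. Leaving out P1, P3, N1 or N3 left 8, 4, 8 and 5 members that rose, against 10.4%, 7.42%, 10.5% and 8.10% of all genes in the same fits, so that the counts without P3 and without N3 were near the share of all genes. Leaving out P2 left 32, against 14.8% of all genes, and leaving out N2 left 26, against 23.5%. The median difference lay between 0.68 and 0.86 in these 6 fits. Without both arrays numbered 2 there were 44, against 23.9% of all genes. Without both numbered 3 there were 0 by limma, against 0.819% of all genes, with 8 higher at an unadjusted p below 0.05. Mcm10, Mcm3 and Mcm4 rose in all 6 fits, Rpa2, Rfc1 and Pola2 in 5, and 17 of the 26 in only 1 or 2. A call said below to be kept, lost or gained without an array refers to these 6 fits alone. A further 14 members that did not pass had an unadjusted p below 0.05, and 12 of those not called had all Thy1-positive arrays above all Thy1-negative ones.

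**Figure D2:**
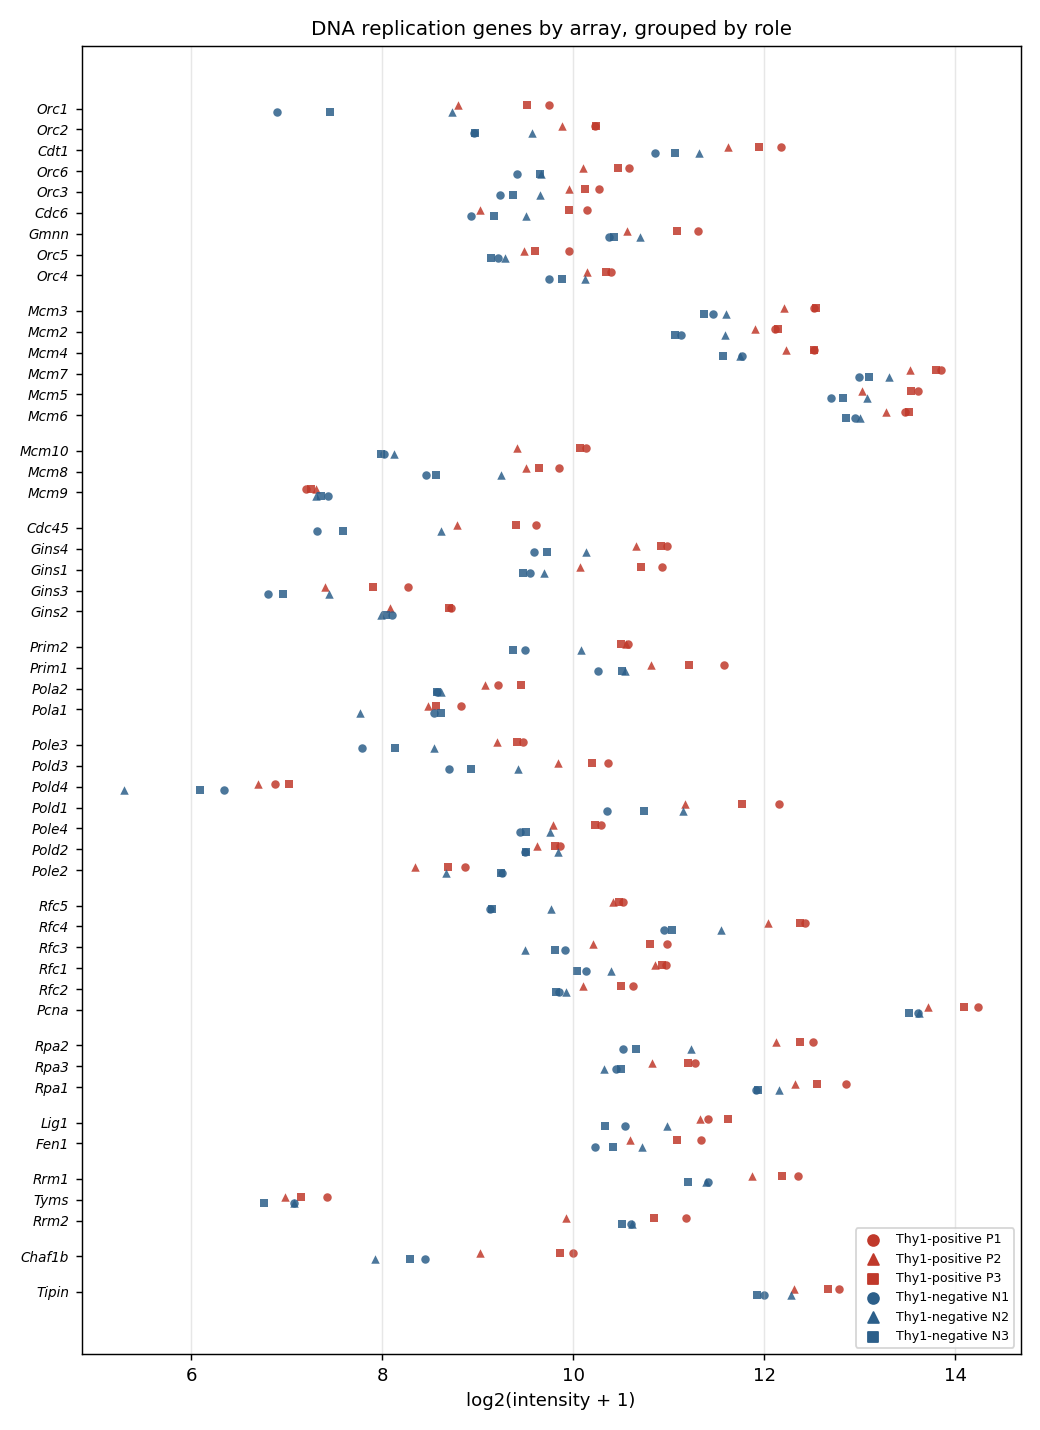
Level of each of the 50 genes on each array, as log2(intensity + 1) (x axis), with genes grouped by role (y axis) and shapes for the array number. Thy1-positive points lie right of all Thy1-negative points for 38 genes, and triangles (P2 and N2) lie closest together for most of them. Levels of different genes come from different probe sets and are not to be compared.

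Of the 9 licensing genes 4 rose (44.4%, against 27.8% of the comparably bright genes), namely Orc2, Orc3, Orc6 and Cdt1, and all 9 had differences above 0. The origin recognition complex binds origins and recruits the other factors. Its largest subunit, Orc1, measured 9.75, 8.79 and 9.52 on P1, P2 and P3, against 6.90, 8.73 and 7.45 on N1, N2 and N3. N2 lay just below P2 for this gene, N1 and N3 lay well below, and the difference did not pass (1.66, SE 0.57, adjusted p = 0.0891). Among the 6 fits without 1 array it passed only without N2, where it was 2.18. Orc2 measured 10.22, 9.88 and 10.24 in the Thy1-positive and 8.96, 9.57 and 8.97 in the Thy1-negative arrays and rose 1.93-fold (0.95, SE 0.22, adjusted p = 0.0314). Orc6 measured 10.58, 10.10 and 10.47 in the Thy1-positive and 9.41, 9.66 and 9.65 in the Thy1-negative arrays and rose 1.76-fold (0.81, SE 0.16, adjusted p = 0.0198). In both genes every Thy1-positive array lay above every Thy1-negative one. Orc3 rose by 0.70 (adjusted p = 0.0233), while Orc5 (0.47, adjusted p = 0.0603) and Orc4 (0.38, adjusted p = 0.0814) did not pass, although their arrays did not overlap. Another probe set of Orc3 above the median intensity differed by 0.01 and did not pass over all 45037 probe sets (adjusted p = 0.980). On the same adjustment, the other probe sets of Orc2 differed by 0.24 and did not pass (adjusted p = 0.301), or rose by 1.00 (adjusted p = 0.0258).

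Cdt1, which brings the helicase to the origin, measured 12.18, 11.62 and 11.95 on P1, P2 and P3, against 10.86, 11.31 and 11.07 on N1, N2 and N3. It rose 1.78-fold (0.83, SE 0.19, adjusted p = 0.0331). Gmnn encodes geminin, the inhibitor that holds Cdt1 back after licensing, and measured 11.30, 10.56 and 11.09 on P1, P2 and P3, against 10.37, 10.70 and 10.42 on N1, N2 and N3. Its fractions overlapped, since P2 lay below N2, and the difference of 0.49 did not pass (adjusted p = 0.175). Cdc6, the ATPase that works with Cdt1, showed the same overlap more widely, with 10.15, 9.02 and 9.95 in the Thy1-positive and 8.93, 9.51 and 9.17 in the Thy1-negative arrays (difference 0.50, adjusted p = 0.368). P2 was lower than N2 and N3 for this gene. Over the 6 fits without 1 array the 4 risen licensing genes differed by 0.61 to 1.15, and each of the 4 passed only without P2 or without N2.

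**Figure D3:**
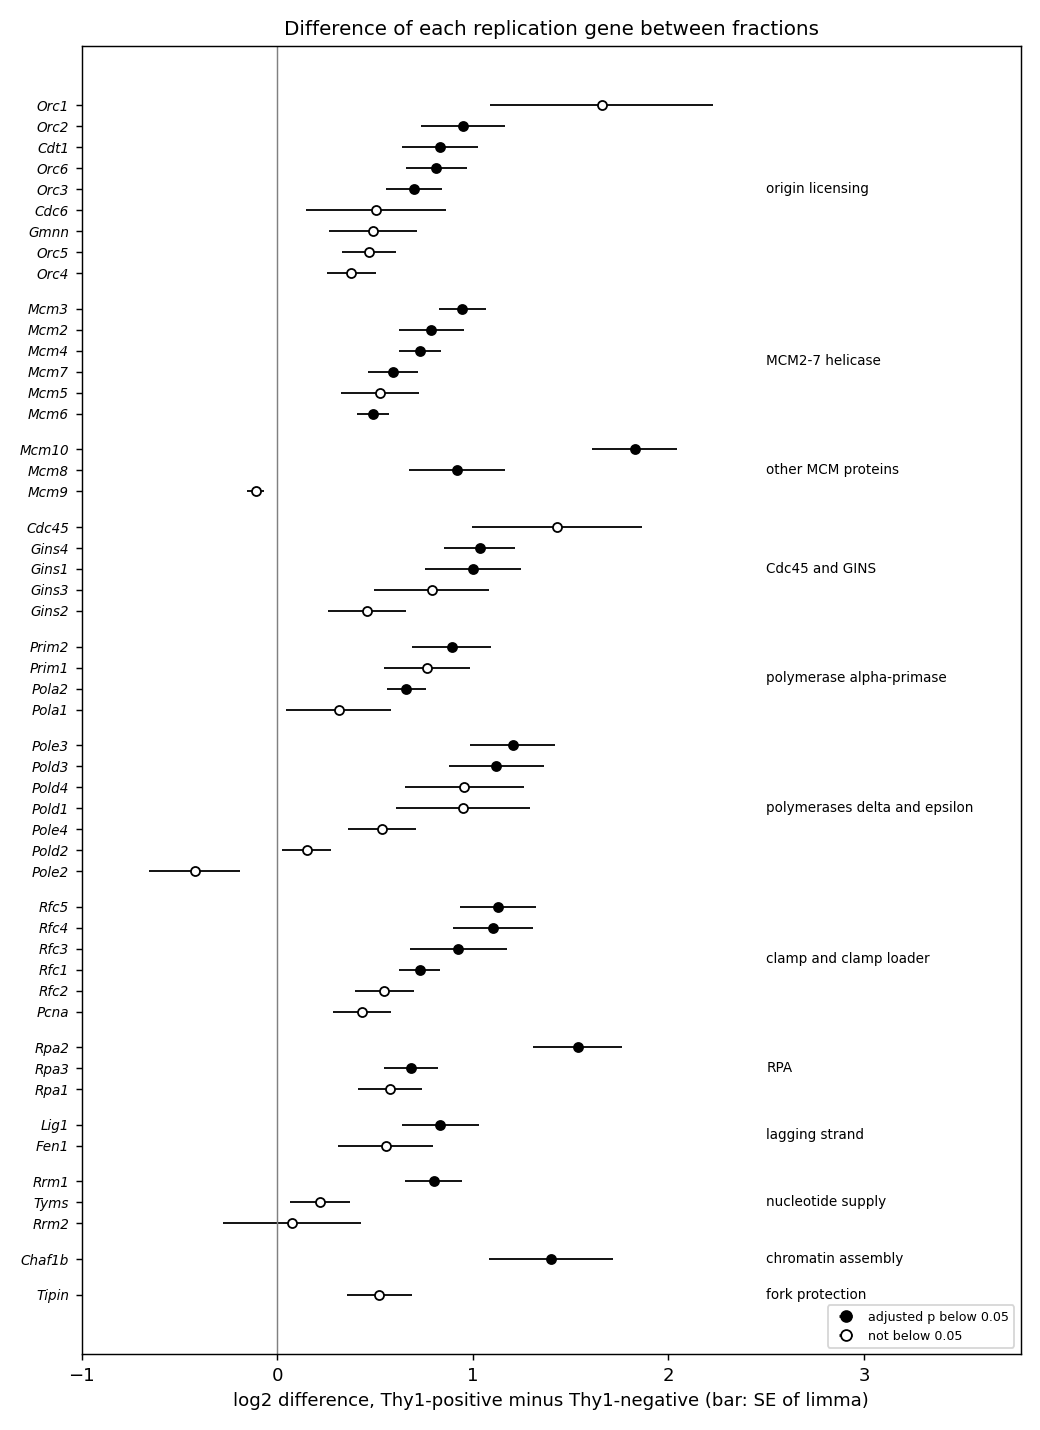
Log2 difference, Thy1-positive minus Thy1-negative (x axis, bar: SE of limma), for each of the 50 genes grouped by role (y axis). Filled points passed an adjusted p below 0.05. All points but those of Mcm9 and Pole2 lie right of 0, and Mcm10, Orc1, Rpa2, Cdc45 and Chaf1b lie farthest right.

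Of the 6 subunits of the replicative helicase, 5 rose (83.3%, against 27.8% of the comparably bright genes). These were Mcm2, Mcm3, Mcm4, Mcm6 and Mcm7, Mcm5 did not pass, and the median difference over the 6 was 0.66. Mcm3 measured 12.52, 12.20 and 12.54 on P1, P2 and P3, against 11.46, 11.60 and 11.37 on N1, N2 and N3 (1.93-fold, 0.95, SE 0.12, adjusted p = 0.00747). Mcm4 measured 12.52, 12.23 and 12.52 in the Thy1-positive and 11.77, 11.75 and 11.57 in the Thy1-negative arrays (1.66-fold, 0.73, SE 0.11, adjusted p = 0.0104). On these probe sets both had a gap between the fractions on every array pair, and both rose whichever array was left out. The other probe set of Mcm4 differed by 0.35 and did not pass over all 45037 probe sets (adjusted p = 0.434). There P2, at 11.17, lay below all Thy1-negative arrays (11.37, 11.29 and 11.42). Mcm2 measured 12.11, 11.90 and 12.14 in the Thy1-positive and 11.13, 11.59 and 11.07 in the Thy1-negative arrays (0.79, SE 0.17, adjusted p = 0.0260). Mcm6, at 13.42 ± 0.13 over the Thy1-positive arrays, against 12.93 ± 0.08 over the Thy1-negative ones (SD, n = 3 each), rose by only 0.49 (adjusted p = 0.0141), and Mcm7 rose by 0.59 (adjusted p = 0.0276). Mcm2, Mcm6 and Mcm7 passed only without P2 or without N2 among the fits that left out 1 array, in which the 5 risen subunits differed by 0.44 to 1.06.

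Mcm5 measured 13.61, 13.02 and 13.54 on P1, P2 and P3, against 12.70, 13.07 and 12.82 on N1, N2 and N3. P2 fell just short of N2, and the difference of 0.53 did not pass (adjusted p = 0.114). This was read on a probe set that Affymetrix marks as one that may cross-hybridise. The other bright probe set of Mcm5 differed by 1.13 with an SE of 0.23 and rose with the adjustment taken over all 45037 probe sets (adjusted p = 0.0291). The 4 probe sets of Mcm7 differed by 0.59 to 1.42, so the sizes within the helicase depend on the probe set read. Other bright probe sets of Mcm2 (0.83, adjusted p = 0.114) and Mcm6 (0.40, adjusted p = 0.338) did not pass over all probe sets.

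Of the MCM proteins outside the hexamer, Mcm10 and Mcm8 rose and Mcm9 did not pass. Mcm10, a factor that helps activate the helicase and load polymerase alpha, measured 10.14, 9.41 and 10.07 on P1, P2 and P3, against 8.02, 8.12 and 7.99 on N1, N2 and N3. Thy1-positive cells were 3.55-fold higher (1.83, SE 0.22, adjusted p = 0.00683), the highest difference of the 50 genes, with Thy1-negative arrays within a narrow range and P2 lowest of the Thy1-positive ones. Its other probe set above the median intensity differed by 1.50 and did not pass over all probe sets (adjusted p = 0.0543). Mcm8 and Mcm9 form a helicase of homologous recombination, needed for germ cells in mice. Mcm8 measured 9.85, 9.51 and 9.65 in the Thy1-positive and 8.46, 9.24 and 8.57 in the Thy1-negative arrays and rose by 0.92 (adjusted p = 0.0475), a call kept only without N2 among the 6 fits without 1 array, and lost over all probe sets. Mcm9 measured 7.20, 7.31 and 7.26 in the Thy1-positive and 7.43, 7.31 and 7.36 in the Thy1-negative arrays. Its difference of -0.11 was small, did not pass (adjusted p = 0.135) and turned to 0.011 under median centring of the arrays.

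Of the 5 factors that start the helicase, Gins1 and Gins4 rose (40%, against 27.8% of the comparably bright genes), and the other 3 had differences above 0. Cdc45 measured 9.61, 8.78 and 9.40 on P1, P2 and P3, against 7.31, 8.61 and 7.59 on N1, N2 and N3. As with Orc1, N2 stood far above N1 and N3, and the difference of 1.43 (SE 0.43) did not pass (adjusted p = 0.0659), and among the 6 fits without 1 array it passed only without N2, at 1.82. Of the GINS complex, the ring that binds Cdc45 to the helicase, Gins4 measured 10.98, 10.65 and 10.92 in the Thy1-positive and 9.58, 10.14 and 9.73 in the Thy1-negative arrays and rose 2.05-fold (1.03, SE 0.18, adjusted p = 0.0159). Gins1 measured 10.93, 10.07 and 10.71 in the Thy1-positive and 9.54, 9.69 and 9.47 in the Thy1-negative arrays and rose 2.00-fold (1.00, SE 0.25, adjusted p = 0.0379), a call kept only without P2 among the 6 fits without 1 array. Gins4 passed without P2, N1 or N2, and the pair differed by 0.82 to 1.25 over those fits. The other bright probe set of Gins1 differed by 0.36 and did not pass over all probe sets (adjusted p = 0.349). Gins3 (0.79, adjusted p = 0.108) and Gins2 (0.46, adjusted p = 0.156) did not pass, and the arrays of both overlapped.

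All 3 subunits of RPA, the protein that covers single-stranded DNA, had higher levels on every Thy1-positive array. Rpa2, the subunit that is phosphorylated when replication stalls, measured 12.52, 12.13 and 12.38 on P1, P2 and P3, against 10.53, 11.23 and 10.66 on N1, N2 and N3. It rose 2.90-fold (1.54, SE 0.23, adjusted p = 0.0107), and the call was lost only without P3, at 1.52. Its second probe set differed by 1.14. Rpa3, the smallest subunit, measured 11.28, 10.82 and 11.20 in the Thy1-positive and 10.44, 10.32 and 10.50 in the Thy1-negative arrays and rose by 0.68 (adjusted p = 0.0236), a call kept only without P2 among the 6 fits, over which it differed by 0.60 to 0.82. Rpa1, the large DNA-binding subunit, measured 12.58 ± 0.27 over the Thy1-positive arrays, against 12.00 ± 0.14 over the Thy1-negative ones (SD, n = 3 each) and did not pass (0.58, adjusted p = 0.0539), but its other probe set differed by 0.91 with an SE of 0.08 and rose over all probe sets (adjusted p = 0.00565).

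Polymerase alpha and primase lay down the primer that every new strand needs. Pola2, the regulatory subunit, measured 9.21, 9.08 and 9.45 on P1, P2 and P3, against 8.58, 8.61 and 8.57 on N1, N2 and N3. The Thy1-negative arrays were within a few hundredths of each other, and the gene rose 1.58-fold (0.66, SE 0.10, adjusted p = 0.0117), losing its call only without N3, at 0.65. Pola1, the catalytic subunit, measured 8.82, 8.48 and 8.56 in the Thy1-positive and 8.54, 7.76 and 8.61 in the Thy1-negative arrays and did not pass (0.31, adjusted p = 0.461). For Pola1, N2 was the lowest array, unlike most members. Prim2, the large primase subunit, measured 10.57, 10.55 and 10.50 in the Thy1-positive and 9.49, 10.08 and 9.37 in the Thy1-negative arrays, with the Thy1-positive arrays close together, and rose by 0.89 (adjusted p = 0.0314), a call kept only without N2 (differences of 0.75 to 1.11 over the 6 fits). Its other bright probe set differed by 0.57 and did not pass over all probe sets (adjusted p = 0.188). Prim1, the catalytic subunit of primase, differed by 0.77 and did not pass (adjusted p = 0.0567), whereas its other probe set differed by 0.97 and rose over all probe sets (adjusted p = 0.0209).

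Of 7 subunits of polymerases delta and epsilon, 2 rose (28.6%), near the 27.8% of the comparably bright genes, and the differences of the 7 had both signs. The polymerase epsilon gene Pole, whose symbol has no number, is counted below with the replication genes outside the naming rule. It rose by 1.12 (adjusted p = 0.0496). Pold3, an accessory subunit of polymerase delta, measured 10.36, 9.84 and 10.20 on P1, P2 and P3, against 8.70, 9.42 and 8.93 on N1, N2 and N3 and rose 2.17-fold (1.12, SE 0.24, adjusted p = 0.0278), a call kept only without P2 or without N2 (differences of 0.96 to 1.32 over the 6 fits). Its other bright probe sets differed by 0.32 and 0.44 and did not pass over all probe sets (adjusted p = 0.120 and 0.221). Pold1, the catalytic subunit, measured 12.15, 11.17 and 11.77 in the Thy1-positive and 10.35, 11.15 and 10.74 in the Thy1-negative arrays. P2 and N2 were nearly equal for Pold1, and the difference of 0.95 did not pass (adjusted p = 0.101), but another probe set differed by 1.35 and rose over all probe sets (adjusted p = 0.0334). Pold4, the small subunit, differed by 0.96 (adjusted p = 0.0739), and Pold2, the subunit that bridges the others, by 0.15 (adjusted p = 0.444). Pold2 overlapped between fractions, with N2 above P2 and P3.

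Pole2, the second subunit of polymerase epsilon, was the member with the lowest difference. It measured 8.87, 8.34 and 8.69 on P1, P2 and P3, against 9.26, 8.66 and 9.25 on N1, N2 and N3. P2 was the lowest array of all and N1 and N3 the highest, and the difference of -0.42 (SE 0.23) did not pass (adjusted p = 0.244). Without both arrays numbered 2 it fell by 0.47 (adjusted p = 0.0387). Pole3 and Pole4, which fold like histones and bind DNA beside the polymerase, were read by probe sets that disagreed. The kept probe set of Pole3 measured 9.47, 9.20 and 9.41 in the Thy1-positive and 7.79, 8.55 and 8.14 in the Thy1-negative arrays and rose 2.30-fold (1.20, SE 0.22, adjusted p = 0.0171), a call kept without P2, N1 or N2 and lost without P1, P3 or N3 (differences of 1.02 to 1.40). The other bright probe set of Pole3 measured 7.49, 7.64 and 7.65 on P1, P2 and P3, against 7.95, 7.81 and 8.02 on N1, N2 and N3, and fell by 0.33 (adjusted p = 0.0432 over all probe sets). Pole3 is thus called in opposite directions by its probe sets, and its kept one is of a kind (ending in _s_at) that can bind transcripts of more than 1 gene.

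Probe sets of 3 other members differed in sign without passing the test. The kept probe set of Pole4 differed by 0.54 (adjusted p = 0.0764) and another by -0.59 (adjusted p = 0.168 over all probe sets). Orc4 had 4 bright probe sets that differed by 0.38, -1.08, -0.59 and 0.84, none of which passed. The bright probe sets of Mcm9 differed by -0.11 and 0.76. In all, 33 members had more than 1 probe set above the median intensity, and differences of both signs occurred in these 4. In only 3 of the 33 did every such probe set rise over all probe sets. Of the 95 member probe sets above that median, 38 rose and 1 fell, against 21.6% and 20.9% of all such probe sets. The 18 below it gave 0 calls by limma.

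**Figure D4:**
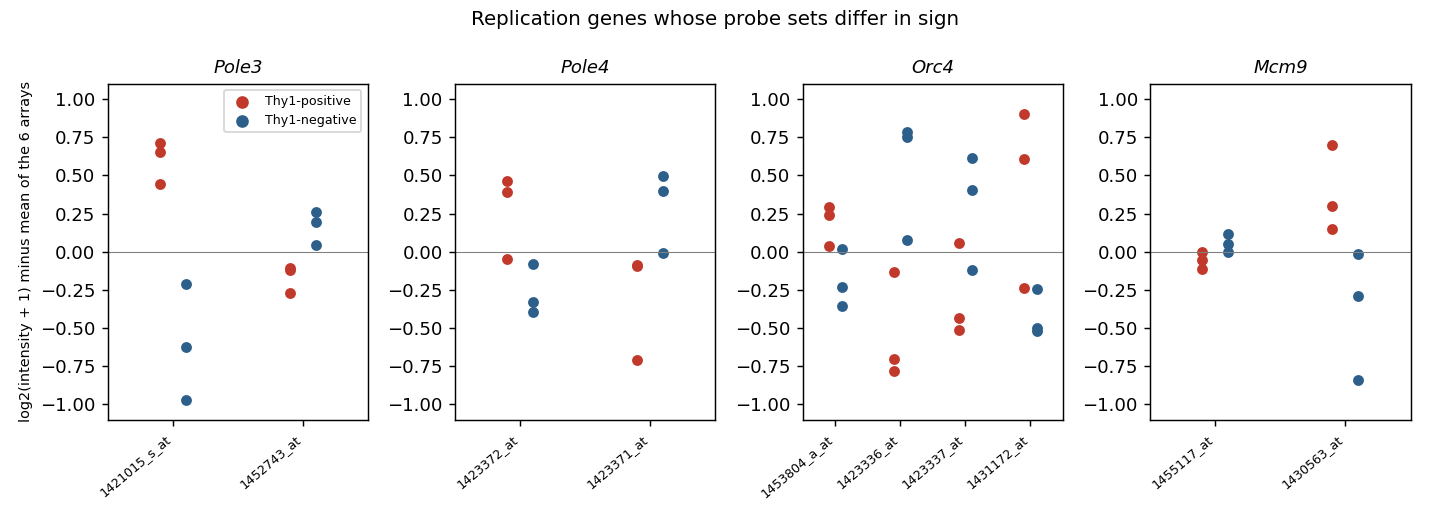
Level of each probe set above the median intensity, as log2(intensity + 1) minus its mean over the 6 arrays (y axis), for Pole3, Pole4, Orc4 and Mcm9 (x axis: probe sets, kept one first). Thy1-positive points lie above the Thy1-negative ones for the kept probe set of Pole3 and below them for its other one.

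Of the 5 clamp loader genes 4 rose, and the clamp itself did not pass (66.7% of the 6 together rose, against 27.8% of the comparably bright genes). Rfc1, the large loader subunit, measured 10.97, 10.85 and 10.92 on P1, P2 and P3, against 10.13, 10.39 and 10.04 on N1, N2 and N3. It rose 1.66-fold (0.73, SE 0.10, adjusted p = 0.0100), and all 3 of its probe sets rose. Rfc4 measured 12.43, 12.04 and 12.37 in the Thy1-positive and 10.95, 11.54 and 11.03 in the Thy1-negative arrays (2.15-fold, 1.10, SE 0.21, adjusted p = 0.0189), and Rfc5 measured 10.52, 10.42 and 10.48 in the Thy1-positive and 9.12, 9.76 and 9.15 in the Thy1-negative arrays (2.19-fold, 1.13, SE 0.20, adjusted p = 0.0156). N2 was the highest Thy1-negative array for both, though still below P2. Rfc3 rose by 0.93 (adjusted p = 0.0472), but not over all probe sets, and Rfc2 did not pass (0.55, adjusted p = 0.0516). Rfc1 lost its call only without P3, Rfc3 kept it only without P2, and Rfc4 and Rfc5 kept it only without P2 or without N2. The 4 differed by 0.65 to 1.34 over those fits. The second probe set of Rfc4 differed by 1.21 and did not pass over all probe sets (adjusted p = 0.0530).

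Pcna, the sliding clamp and a common marker of dividing cells, measured 14.24, 13.72 and 14.09 on P1, P2 and P3, against 13.61, 13.62 and 13.51 on N1, N2 and N3. Every Thy1-positive array lay above the Thy1-negative ones, P2 by the least, and the difference of 0.43 (1.35-fold, SE 0.15) did not pass (adjusted p = 0.0874). On the lagging strand, Lig1, the ligase that seals Okazaki fragments, measured 11.41, 11.33 and 11.62 in the Thy1-positive and 10.54, 10.99 and 10.33 in the Thy1-negative arrays and rose by 0.83 (adjusted p = 0.0339), a call kept only without N2 (differences of 0.69 to 1.02). Fen1, the nuclease that trims their flaps, differed by 0.55 with overlapping arrays and did not pass (adjusted p = 0.156).

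Of the 3 genes that supply nucleotides 1 rose (33.3%, against 27.8% of the comparably bright genes), and their median difference was 0.22. Ribonucleotide reductase makes the deoxyribonucleotides. Its large subunit gene Rrm1 measured 12.35, 11.87 and 12.19 on P1, P2 and P3, against 11.41, 11.39 and 11.21 on N1, N2 and N3 and rose 1.74-fold (0.80, SE 0.15, adjusted p = 0.0176), a call lost without P3, N1 or N3 (differences of 0.69 to 0.93). Its S phase small subunit gene Rrm2 measured 11.18, 9.92 and 10.85 on P1, P2 and P3, against 10.60, 10.62 and 10.51 on N1, N2 and N3. Here P2 was the lowest of all 6 arrays and P1 and P3 the highest, and the difference of 0.08 (SE 0.35) did not pass (adjusted p = 0.927) and was -0.067 with arrays centred on housekeeping genes. Its kept probe set is one that may cross-hybridise, and its others differed by 0.25 and 0.78 and did not pass. The other bright probe set of Rrm1 differed by 0.56 and did not pass over all probe sets (adjusted p = 0.108). Tyms, the thymidylate synthase gene, differed by 0.22 with overlapping arrays (adjusted p = 0.368).

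Chaf1b, a subunit of the chromatin assembly factor that places histones behind the fork, measured 9.99, 9.02 and 9.86 on P1, P2 and P3, against 8.45, 7.93 and 8.29 on N1, N2 and N3. It rose 2.64-fold (1.40, SE 0.32, adjusted p = 0.0309), with the call held only without P2 among the 6 fits (differences of 1.21 to 1.70). N2 was its lowest array. Tipin, which protects paused forks together with Timeless, measured 12.79, 12.32 and 12.67 in the Thy1-positive and 12.00, 12.28 and 11.92 in the Thy1-negative arrays and did not pass (0.52, adjusted p = 0.0742), although its arrays did not overlap by a small margin.

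Within each fraction the members ordered the arrays alike. P2 was the lowest Thy1-positive array for 48 of the 50 genes (96.0%), where 40.3% of the 9180 comparably bright genes had P2 lowest. P2 minus the mean of P1 and P3 had a median of -0.39, against 0.03 for the bright genes. N2 was the highest Thy1-negative array for 39 of the 50 (78.0%), against 48.9%, and N2 minus the mean of N1 and N3 had a median of 0.29, against 0.05. The mean level of the 50 genes was 10.79, 10.30 and 10.67 on P1, P2 and P3, against 9.74, 10.01 and 9.77 on N1, N2 and N3. Of the pairs between the fractions, P2 and N2 lay nearest to each other. P1 and P3 both exceeded every Thy1-negative array for 46 genes, and P2 did so for 38. The share of all genes was not computed for these counts, so they cannot be read as particular to the members.

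Marker genes of cell types also differed between the arrays of a fraction. All 12 of the germ cell markers had higher levels on each Thy1-positive array, 5 of them rose, and the mean of the list was 11.30 to 11.38 on Thy1-positive arrays, against 8.71, 10.44 and 9.21 on N1, N2 and N3. N2, which had the highest replication gene levels of its fraction, also had the highest germ cell level, as it had for other lists given below. Of 13 undifferentiated spermatogonia markers 11 rose (list mean 9.67 to 9.89 against 6.59 to 7.32). All 12 Sertoli cell markers fell, with list means of 6.32, 8.11 and 6.55 on P1, P2 and P3, against 11.64, 10.87 and 11.46 on N1, N2 and N3. P2, lowest for replication genes, thus had the highest Sertoli marker level of its fraction, and its interstitial mesenchyme list was also highest (11.58, against 10.05 on P1 and 10.76 on P3), a list in which 1 of 6 genes fell between the fractions.

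Other cell types were unequal between the fractions too. All 12 macrophage markers rose, with list means of 9.86, 10.33 and 10.13 on P1, P2 and P3, against 3.50, 3.35 and 3.38 on N1, N2 and N3. Of 7 peritubular myoid markers 5 fell (6.27, 6.66 and 6.27 on P1, P2 and P3, against 8.25, 8.99 and 8.53 on N1, N2 and N3). Of 4 Leydig cell markers 2 fell (8.58 to 9.28 against 9.54 to 10.68), and of 3 erythroid markers 2 fell (2.89 to 2.99 against 4.72 to 5.55). Of 4 T lymphocyte markers 2 rose (4.66 to 4.71 against 2.58 to 2.65), and of 5 endothelial ones 1 rose and 1 fell (3.85 to 4.10 against 3.72 to 4.52). Of 6 markers of differentiating spermatogonia 2 rose (8.36, 8.38 and 8.56 on P1, P2 and P3, against 6.88, 8.89 and 7.39 on N1, N2 and N3). N2 was thus also the highest Thy1-negative array for the myoid and the differentiating lists. P2 was also the highest Thy1-positive array for the myoid and the macrophage lists. No marker can read 0, since the lowest intensity in the table is 1.87. Without detection calls, a low marker level does not show that the marker is expressed in a fraction. The part of these cell types in the replication gene differences was not tested. Thy1 itself rose by 3.72 (adjusted p = 0.000984).

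**Figure D5:**
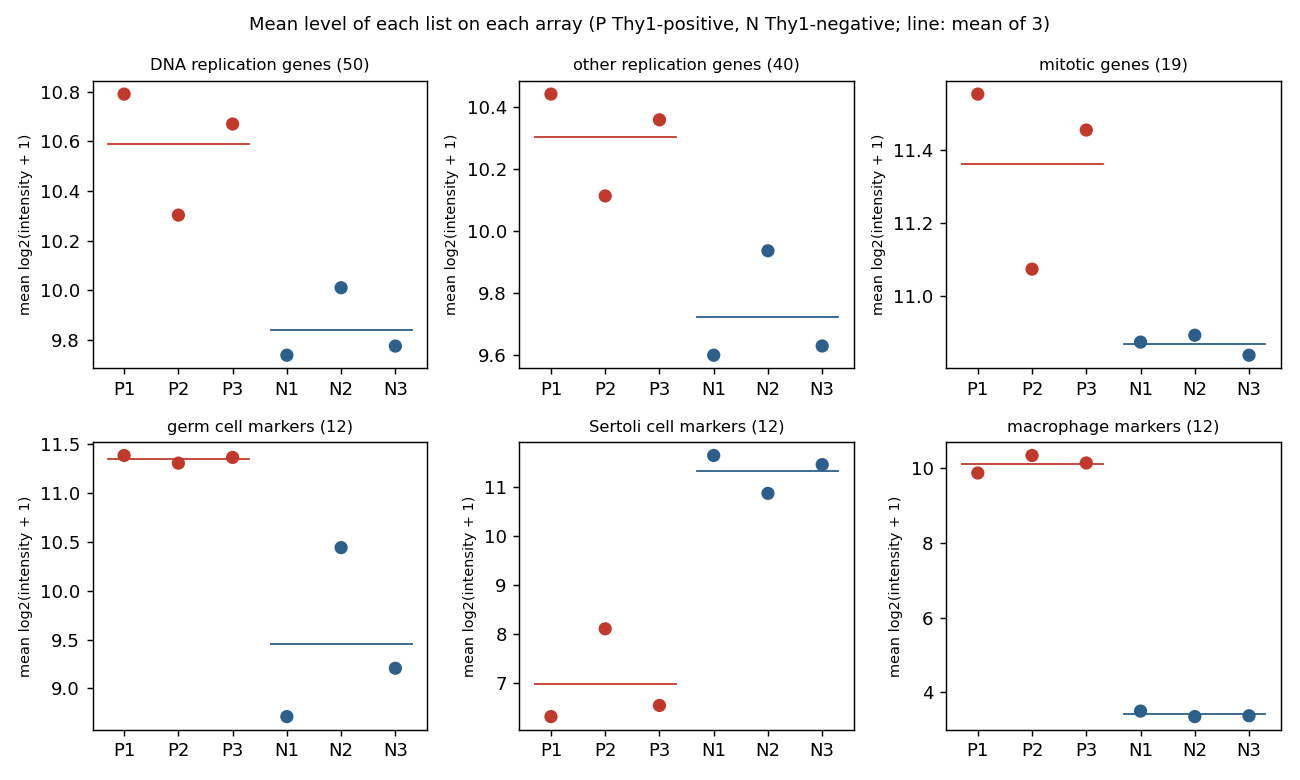
Mean log2(intensity + 1) of each list (y axis, each panel with its own range) on each array (x axis, P Thy1-positive, N Thy1-negative, line: mean of the 3). Replication genes are lowest on P2 within Thy1-positive and highest on N2 within Thy1-negative arrays, N2 is also the highest Thy1-negative array for germ cell markers, and P2 the highest Thy1-positive array for Sertoli cell markers.

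Replication genes outside the naming rule had differences above 0 in 35 of 40. Of the 40, 14 rose (35.0%, against 18.5% of all genes and 27.8% of the comparably bright ones) and 2 fell, with a median difference of 0.65. Chtf18, a subunit of an alternative clamp loader, measured 9.92, 9.96 and 10.03 in the Thy1-positive and 7.94, 8.88 and 8.04 in the Thy1-negative arrays and rose 3.21-fold (1.68, SE 0.28, adjusted p = 0.0141), a call lost without P1, P3 or N3 (differences of 1.51 to 1.98). Uhrf1, which passes DNA methylation on at the fork, rose by 1.26 (adjusted p = 0.00749). Nme1, a nucleoside diphosphate kinase, rose by 1.70 (adjusted p = 0.00808), while its other bright probe set differed by 0.17 and did not pass. Samhd1, which breaks down deoxyribonucleotides and is abundant in macrophages, rose by 1.61 (adjusted p = 0.00746), and its other probe sets differed by 0.57 and 0.50.

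The 2 that fell were Top1 and Rrm2b. Top1, a topoisomerase that relaxes DNA ahead of forks and of transcription, measured 10.32, 10.41 and 10.32 on P1, P2 and P3, against 11.24, 11.20 and 10.96 on N1, N2 and N3 and fell (-0.78, SE 0.09, adjusted p = 0.00571), as did its second probe set (-1.30). Rrm2b, the small reductase subunit used outside S phase, fell by 0.55 (adjusted p = 0.0367), a call kept only without N2 (differences of -0.67 to -0.49), and its other probe sets differed by -0.22 to 0.41. The highest differences that did not pass were those of Recql4 (1.23), Wdhd1 (1.17) and Lrwd1 (1.00). In each of them N2 stood above N1 and N3, as in Wdhd1 with 11.03, 10.51 and 10.85 in the Thy1-positive and 9.18, 10.44 and 9.27 in the Thy1-negative arrays. Without P1, P3, N1 or N3 the list had 4, 4, 6 and 4 higher calls, and without P2 or N2 it had 16 and 20, to be read against the shares of all genes in the same fits given for the members.

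Of 14 polymerases of repair, of damage bypass and of mitochondria, 4 rose (28.6%, against 18.5% of all genes) and 2 fell (14.3%, against 14.4%). This list, called the repair polymerases below, had a median difference of 0.30. The 27.8% of the bright genes is not a like comparison here. It covers genes at least as bright as Pold4, the dimmest replication member (mean level 6.39). Poll, Polm, Poln, Polq and Primpol were dimmer, with fraction means of 3.81 to 5.98. The share that fell was near that of all genes, and the share that rose rests on 4 genes. Polb, the polymerase of base excision repair, rose by 1.00 (adjusted p = 0.0154), Polg2, the accessory subunit of the mitochondrial polymerase, by 0.96 and the bypass polymerase Poli by 0.86. Each lost its call without P1 or P3 (Polb and Polg2 also without N3, Poli also without N1). Rev1 rose by 0.31 (adjusted p = 0.0437), a call kept only without P2. Polh, the polymerase that copies past ultraviolet damage, measured 7.67, 7.81 and 7.70 on P1, P2 and P3, against 9.55, 9.20 and 8.99 on N1, N2 and N3 and fell (-1.52, SE 0.16, adjusted p = 0.00529), also on its second probe set (-1.08). The gap between the fractions exceeded 1 on every array pair. Polk fell by 0.36 (adjusted p = 0.0109), a call lost without P3, and its other probe set differed by 0.23 and did not pass. Primpol (-0.90), Mad2l2 (-0.78) and Poln (0.72) did not pass. The higher calls of this list by limma numbered 0, 0, 2 and 1 without P1, P3, N1 and N3, with 4 and 5 genes higher at an unadjusted p below 0.05 without P1 and without P3. Of all genes 10.4%, 7.42%, 10.5% and 8.10% rose in those 4 fits.

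The mitotic genes also had mostly positive differences. Of 19, 7 rose (36.8%, against 18.5% of all genes and 27.8% of the comparably bright ones), and the median difference was 0.46. None fell by limma, and 1 was lower at an unadjusted p below 0.05. Cenpe, a kinetochore motor, measured 11.43, 10.74 and 11.07 in the Thy1-positive and 9.49, 9.96 and 9.73 in the Thy1-negative arrays and rose by 1.35 (adjusted p = 0.0138). Kif11, the spindle motor, rose by 1.17 on its kept probe set, with others at 0.08 and 0.60 that did not pass. The checkpoint genes Ttk (1.09, adjusted p = 0.0226) and Mad2l1 (0.85, adjusted p = 0.00670) rose. Of these, Mad2l1 alone passed whichever array was left out. The list had 3, 3, 3 and 2 higher calls without P1, P3, N1 and N3, against 10.4%, 7.42%, 10.5% and 8.10% of all genes. It had 11 and 8 without P2 and N2, against 14.8% and 23.5%. Bub1 (0.73), Aurka (0.72) and Plk1 (0.46) did not pass. Neither did Mki67 (0.17, adjusted p = 0.605) and Cdk1 (-0.40, adjusted p = 0.317). P2 was the lowest Thy1-positive array for 18 of the 19 mitotic genes, and the list means were 11.55, 11.07 and 11.45 on P1, P2 and P3, against 10.87, 10.89 and 10.84 on N1, N2 and N3. N2 did not stand apart for this list. The difference between lists was not tested.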

How the data were processed

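RNA of 6 samples was measured on Affymetrix mouse arrays, 1 array per sample. The deposited table gives intensities on a linear scale for 45101 probe sets. Per the labels, GCRMA was named as a processing tool without a version, while the sample descriptions refer to Affymetrix software. The labels do not settle which of these made the deposited intensity values. No detection calls entered the tests.

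After 64 control probe sets were left out, intensities were put on the scale log2(intensity + 1), without rescaling or filtering. Array medians were 15.7 to 17.5 in intensity. The platform table named 1 gene for 34945 probe sets, more than 1 for 932 and no gene for 9160, and the last 2 kinds were not assigned. The probe set with the highest mean stood for each gene. Fractions were compared with limma 3.58.1 in R 4.3.3 (lmFit and eBayes, fraction as the single term, 2-sided), adjusted over 18193 genes, or over 45037 probe sets where stated. With 3 arrays per fraction, the number of arrays sets the precision.

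The fit was tested on simulated data made from these arrays, in which 24 of 50 genes changed by a log2 difference of 1 passed. A gene that did not pass may therefore still differ. The members, lists and alternatives were chosen with earlier results of these data known. Named genes were all members, and from each other list up to 4 called genes per direction and 3 uncalled ones with the largest differences. Pole, Mki67 and Cdk1 were named besides. Some listed genes, among them Ssrp1 and Ccnb1 and the markers Nanos2, Nanos3, Insl3, Lhcgr and Lck, were not analysed here. Promoters came from RefSeq by symbol. Same-numbered arrays are not stated to share a preparation, so no block was used.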

Additional observations from a re-analysis of the deposited data

How the results depend on the processing

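The median difference of the 50 genes stayed between 0.60 and 0.93 in every alternative run, and moved by less than 0.21, the pooled SD of the members' mean level among the arrays of a fraction. The number that rose, 26, was 24 to 37 with quantile normalization, housekeeping centring, low values raised, a pseudocount of 16, an intensity trend, bright probe sets only, the mean of all probe sets or no _x_at and _s_at probe sets. Of all genes 14.3% (housekeeping centring) to 33.5% (bright probe sets only, which gave the 37) rose in those settings. The number of members that rose was 43 with arrays centred on their median, where 57.4% of all genes rose. That scaling moves the median of all genes to 0.13 (housekeeping centring: -0.13). It moves the share of higher among called genes to 79.7% (42.8%), against 56.2%. Fits without 1 array gave 4 to 32 (against 7.42% to 23.5% of all genes), without both arrays numbered 2 44 (23.9%), and without both numbered 3 0 (0.819%), so that the lowest counts were near the share of all genes. With the replicate block it was 1 (Chaf1b), against 5.12% of all genes, though 21 were higher at an unadjusted p below 0.05. Deviations of same-numbered arrays correlated at -0.24, -0.24 and -0.07, and no array correlated best with its own number. Fractions sorted from a shared suspension could deviate in opposite ways, so these values cannot decide whether same-numbered arrays are paired. The labels do not state pairing, and the main fit has no block for that reason alone. The number that fell was 1 with housekeeping centring (Mcm9), without both arrays numbered 2 (Pole2) and without _x_at and _s_at probe sets (Pole3).

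Of other replication genes, 14 rose, or 24 with median centring, 1 with the replicate block, 29 and 0 without both arrays numbered 2 or 3, and 4 to 20 without 1 array. Of repair polymerases, 4 rose, or 1 with the block, 0 without both arrays numbered 3 and 0 to 5 without 1 array. Of mitotic genes, 7 rose, or 11 with median centring, 3 with the mean of all probe sets, 0 with the block, 11 and 0 without both arrays numbered 2 or 3, and 2 to 11 without 1 array. Of all genes 57.4% rose with median centring, 18.6% with the mean of all probe sets and 5.12% with the block. Without both arrays numbered 2 or 3 the shares were 23.9% and 0.819%, and without 1 array 7.42% to 23.5%. The counts with median centring, 24 of 40 and 11 of 19, were thus near the share of all genes. In fits with 0 calls by limma without both arrays numbered 3, 8 members, 7 other replication genes, 3 repair polymerases and 4 mitotic genes were higher at an unadjusted p below 0.05, and in the mitotic fit with the block 8 were.

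Signs turned for Mcm9 (0.011 with median centring, 0.18 with the mean of all probe sets), Orc4 (-0.11) and Pole4 (-0.017, both with that mean), Pole3 (-0.33 without _x_at and _s_at probe sets) and Rrm2 (-0.067 with housekeeping centring, -0.057 without both arrays numbered 3, and -0.19 to 0.44 over the fits without 1 array, below 0 without P1 or P3). Apart from the choice of probe set and of arrays, the cause was not tested. Without detection calls, what dim probe sets show is limited.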
